A study of Mus musculus with 21 samples.

Results

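Oxidative phosphorylation is carried out by 5 protein complexes in the inner mitochondrial membrane, which oxidise NADH and succinate and make ATP. The genes described here encode their subunits. They were chosen by name: Nduf (without the Ndufaf assembly factors), Sdha to Sdhd, Uqcr, Cox4 to Cox8 and Atp5 for the nuclear genes, and mt-Nd, mt-Co, mt-Atp and mt-Cytb for the genes of mitochondrial DNA, with pseudogenes left out. No measured value entered this rule, but it was set with earlier results of these data known. The table of genotypes held 90 of them among 18079 genes (82 nuclear, 8 mitochondrial), and the table of injections 91 among 13297 (82 nuclear, 9 mitochondrial). In all 94 members were listed in either table and 87 in both. Ndufa4l2, Cox4i2 and Cox8b were listed only in the first, and Ndufs6b, Cox6c2, Atp5mpl and mt-Co2 only in the second. Ndufa4 was counted with complex I by its name, although its protein is now held to be a subunit of complex IV.

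RNA was taken from microglia, the resident macrophages of the brain, and read as tags near the 3′ end of polyadenylated transcripts (QuantSeq). The wild-type (WT) group has 7 libraries labelled as C57BL/6 females. The knockout (KO) group has 4 libraries labelled as uninjected females of B6.129P2-Apoetm1Unc/J, in which the gene of the lipid carrier apolipoprotein E was disrupted by targeting in every cell. The injection table has 5 libraries from males of that knockout strain given PBS (phosphate-buffered saline) into the left hemisphere and 5 from males given recombinant APOE in PBS (rAPOE), so both of its groups lack the endogenous gene. All mice were 12 to 18 weeks old, and injected brains were taken after 16 h. Both hemispheres were collected, and which of them a library came from is not stated, nor is it stated that libraries came from separate mice, so every p-value below is set against the scatter of these libraries only, which may be technical. Each table was normalised apart and is described apart.

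Complex I (NADH dehydrogenase) and complex II (succinate dehydrogenase) pass electrons to ubiquinone, complex III passes them to cytochrome c, complex IV (cytochrome c oxidase) passes them to oxygen, and complex V (ATP synthase) uses the proton gradient made by I, III and IV. Nearly all subunits come from nuclear genes, while a small core of I, III, IV and V is encoded in the mitochondrial genome and transcribed there by another polymerase from long precursors of both strands. Microglia rely on this chain at rest and are known to shift towards glycolysis when activated by bacterial products. Several subunits of complex IV exist as alternative forms, of which Cox6a2, Cox7a1 and Cox8b are best known from heart and skeletal muscle and Cox6b2 from testis.

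Several libraries stood apart before any member was compared. WT library 8 held Apoe at 1011, against 13196 to 17163 in the other WT libraries and 0 to 23.1 in KO libraries, and whether the 3′ tags lie inside the disrupted part of the gene was not tested. The WT libraries other than 8 held 11 to 36 reads of Y-linked genes despite their label as females, and library 8 and the KO libraries held 0. Xist was at 1127 to 1279 in WT other than 8, at 3291 in WT 8 and at 1980 to 3292 in KO. In the injection table, the libraries numbered 5 of both groups had 0 Y-linked reads, with Xist at 979 (PBS) and 718 (rAPOE), although labelled as males. Depth was 2016972 to 3054976 reads over 13592 to 15248 detected genes in WT, 4247865 to 4969287 reads over 8117 to 10479 genes in KO, and 704225 to 1347501 reads over 7601 to 11342 genes in the injected groups. The 8 microglial markers summed to 61130 to 69837 in WT and 76362 to 90909 in KO libraries. Markers of several other brain cells moved with the genotype. The 8 choroid plexus markers summed to 57245 to 83284 in WT other than 8, to 23530 in WT 8 and to 431 to 872 in KO, with Folr1, Sostdc1 and Cldn2 at 0 in KO. Neuron markers summed to 560 to 794, 46.9 and 0 to 51.2 in the same order, with Map2, Rbfox3, Nefl and Gap43 at 0 in KO. Astrocyte markers summed to 3190 to 3466, 1836 and 666 to 1160, with Gfap at 0 in KO. Markers of oligodendrocytes (549 to 638, 190 and 92.5 to 282, with Mog, Mobp, Cldn11 and Ermn at 0 in KO), endothelium (384 to 484, 244 and 165 to 329) and monocytes and neutrophils (2800 to 3474, 161 and 1335 to 5077, with S100a4 and Plac8 at 0 in KO) are given in the same order, the last with overlapping sums. Of the tested markers, 8 of 8 of choroid plexus, 7 of 8 of neurons, 6 of 7 of astrocytes, 2 of 5 of oligodendrocytes, 2 of 7 of endothelium and 3 of 8 of monocytes and neutrophils were lower in KO (19.8% of all genes tested were lower), and 5 of 8 of microglia were higher (5.14% of all genes). The part of these cells in the differences below was not tested, and in bulk RNA fewer cells of a type and less RNA per cell cannot be told apart.

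The choice by name did not use sequence, so the promoters of the nuclear members were searched for short motifs. RefSeq windows of 300 bases (GRCm38.p6, 250 before to 50 after the annotated start) were matched for 68 of the 85 nuclear members, 2 of them under another symbol, which gave 73 windows. Exact matches on both strands were sought for short core motifs of factors known from mitochondrial gene promoters: GABPA (CCGGAAG), NRF1 (GCGC, any base, then TGCGC, a strict form) and YY1 (AAGATGGC). GABPA letters were found in 21.9% of member windows and 8.86% of all 32851 windows, NRF1 letters in 24.7% and 4.6%, and YY1 letters in 13.7% and 2.75%. General promoter letters differed less, with the SP1 core GGGCGG in 39.7% against 35.7%, CCAAT in 41.1% against 37.4%, and TATAAA in 9.59% against 13.6%. A match is a description of the sequence, not evidence of a bound factor.

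4 windows are shown because they belong to members that the results below turn on: Cox6a1, the widely expressed form of a complex IV subunit and lower in KO; Atp5o, the tested member of complex V with the largest fall; Cox8b, a muscle-type form of complex IV; and Ndufc2, the only nuclear member that was higher in KO. Capitals mark matches to the GABPA, NRF1 or YY1 letters on either strand, read 5′ to 3′ on the gene's strand.
Cox6a1, chr5:115348909-115349208, minus strand: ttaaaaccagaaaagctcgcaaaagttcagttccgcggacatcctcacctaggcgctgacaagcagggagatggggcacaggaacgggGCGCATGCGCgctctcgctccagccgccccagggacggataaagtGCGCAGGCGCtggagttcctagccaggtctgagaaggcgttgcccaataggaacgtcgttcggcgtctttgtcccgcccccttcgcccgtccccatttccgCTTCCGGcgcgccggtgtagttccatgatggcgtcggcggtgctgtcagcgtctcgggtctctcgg
Atp5o, chr16:91931581-91931880, minus strand: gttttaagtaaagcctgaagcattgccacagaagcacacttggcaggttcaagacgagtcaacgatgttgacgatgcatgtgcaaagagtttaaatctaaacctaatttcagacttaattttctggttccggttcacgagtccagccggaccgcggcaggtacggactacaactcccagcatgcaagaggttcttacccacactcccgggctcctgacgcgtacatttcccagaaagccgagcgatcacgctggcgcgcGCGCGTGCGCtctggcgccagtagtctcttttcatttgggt
Cox8b, chr7:140900397-140900696, minus strand: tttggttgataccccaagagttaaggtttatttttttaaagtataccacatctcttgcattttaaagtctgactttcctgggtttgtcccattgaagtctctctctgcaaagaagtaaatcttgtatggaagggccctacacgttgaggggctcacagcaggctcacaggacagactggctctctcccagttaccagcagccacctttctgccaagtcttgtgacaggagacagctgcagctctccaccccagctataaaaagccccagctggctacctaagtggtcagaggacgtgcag
Ndufc2, chr7:97399753-97400052, plus strand: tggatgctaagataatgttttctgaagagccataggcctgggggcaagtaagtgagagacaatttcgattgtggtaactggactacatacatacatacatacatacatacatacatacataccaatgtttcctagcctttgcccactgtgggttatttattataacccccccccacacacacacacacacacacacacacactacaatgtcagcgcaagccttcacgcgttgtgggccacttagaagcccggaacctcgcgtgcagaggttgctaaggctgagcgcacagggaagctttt
Cox6a1 carries NRF1 letters at positions 89 and 134 and GABPA letters at 235, counted from the first base of the window. Atp5o carries NRF1 letters at 260, after the annotated start. Cox8b has TATAAA letters at 255, also after the annotated start, and none of the 3 motifs, and Ndufc2 has none of the 3. Among members with a window that were tested between genotypes, a GABPA, NRF1 or YY1 match stood in 15 of the 28 that were lower in KO (53.6%) and in 19 of the 36 others (52.8%), against 16.4% of all genes with a window. The share was close in members that were lower and in the others, and this difference was not tested.

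The first comparison asks how microglia of mice without ApoE differ from wild type. By limma, the main test, some nuclear members were lower in KO in complexes I, III, IV and V, and 1, Ndufc2 of complex I, was higher. In complex II none passed by limma unless WT library 8 was left out. Summed over the nuclear members, the normalised count was 23114 to 26228 in the WT libraries other than 8, 11244 in WT library 8, and 14069, 13099, 13590 and 13419 in KO libraries 1 to 4. WT library 8 thus lay below every KO library in this sum. As a share of all normalised counts, the members made up 0.962% to 1.10% of WT libraries other than 8, 0.309% of WT 8 and 0.584% to 0.660% of KO libraries.

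**Figure D1:**
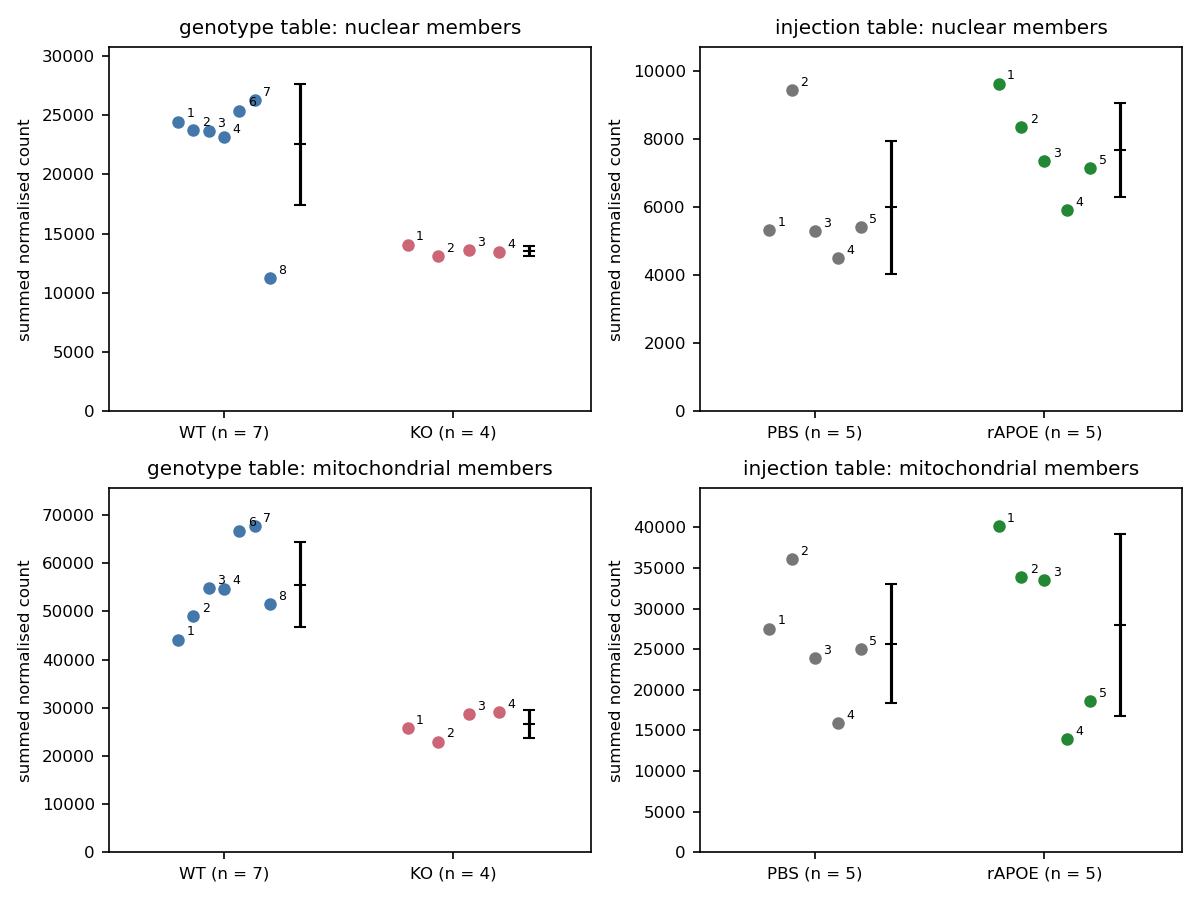
Summed normalised count of the nuclear members (top) and mitochondrial members (bottom) in each library of the genotype table (left) and injection table (right); points are libraries with their number, bars show the mean and SD. WT library 8, at 11244, lies below the KO libraries (13099 to 14069) for nuclear members and within the range of the WT libraries for mitochondrial members (51581).

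Of the 82 nuclear members, 76 reached a mean normalised count of 10 and were tested by limma on log2(normalised count + 1), with p-values adjusted by Benjamini and Hochberg over all 10401 genes tested. At an adjusted p under 0.05, 35 were lower in KO (19.8% of all genes tested were) and 1 was higher (5.14% of all genes). The median log2 difference was −0.83 over these members and −0.45 over all genes tested, and 73 of the 76 differences were below 0, as were 68.1% of those of all genes. Low genes fell most often in this table, so level matters for this reading. Among members with a mean of 10 to 50, 3 of 5 were lower, against 26.0% of all genes in that range. At a mean of 50 to 500, 28 of 64 were lower, against 15.0% of all genes in that range, and 4 of 7 were lower at a mean of 500 or more, against 12.9%. Quantile rescaling moved the median of all genes to 0.09 and the calls over all genes to 9.87% lower and 8.85% higher, while 30 nuclear members were lower and 1 higher under it, with a median of −0.74. Count models on the recovered reads gave 27 lower by edgeR (11.1% of all genes) and 38 by DESeq2 (15.5%), each with 1 higher (4.8% and 6.22%). A pseudocount of 10 gave 40 lower and 1 higher (19.7% and 5.27%), and a replicate block 33 and 1 (13.9% and 3.6%).

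WT library 8 was the lowest WT library for 67 of the 76 tested nuclear members (36.4% of all genes) and fell within the KO range for 46 of them. With that library in the group, all 4 KO libraries lay below all WT libraries for 7 of the tested nuclear members (10.6% of all genes). Without it, the count rose to 46 (17.7% of all genes). The test gave 52 members lower and 1 higher without it, with 22.6% and 7.6% of all genes, and a median of −1.0. All 43 members that passed with library 8 in the fit, mitochondrial ones included, passed without it, and 18 more were gained.

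**Figure D2:**
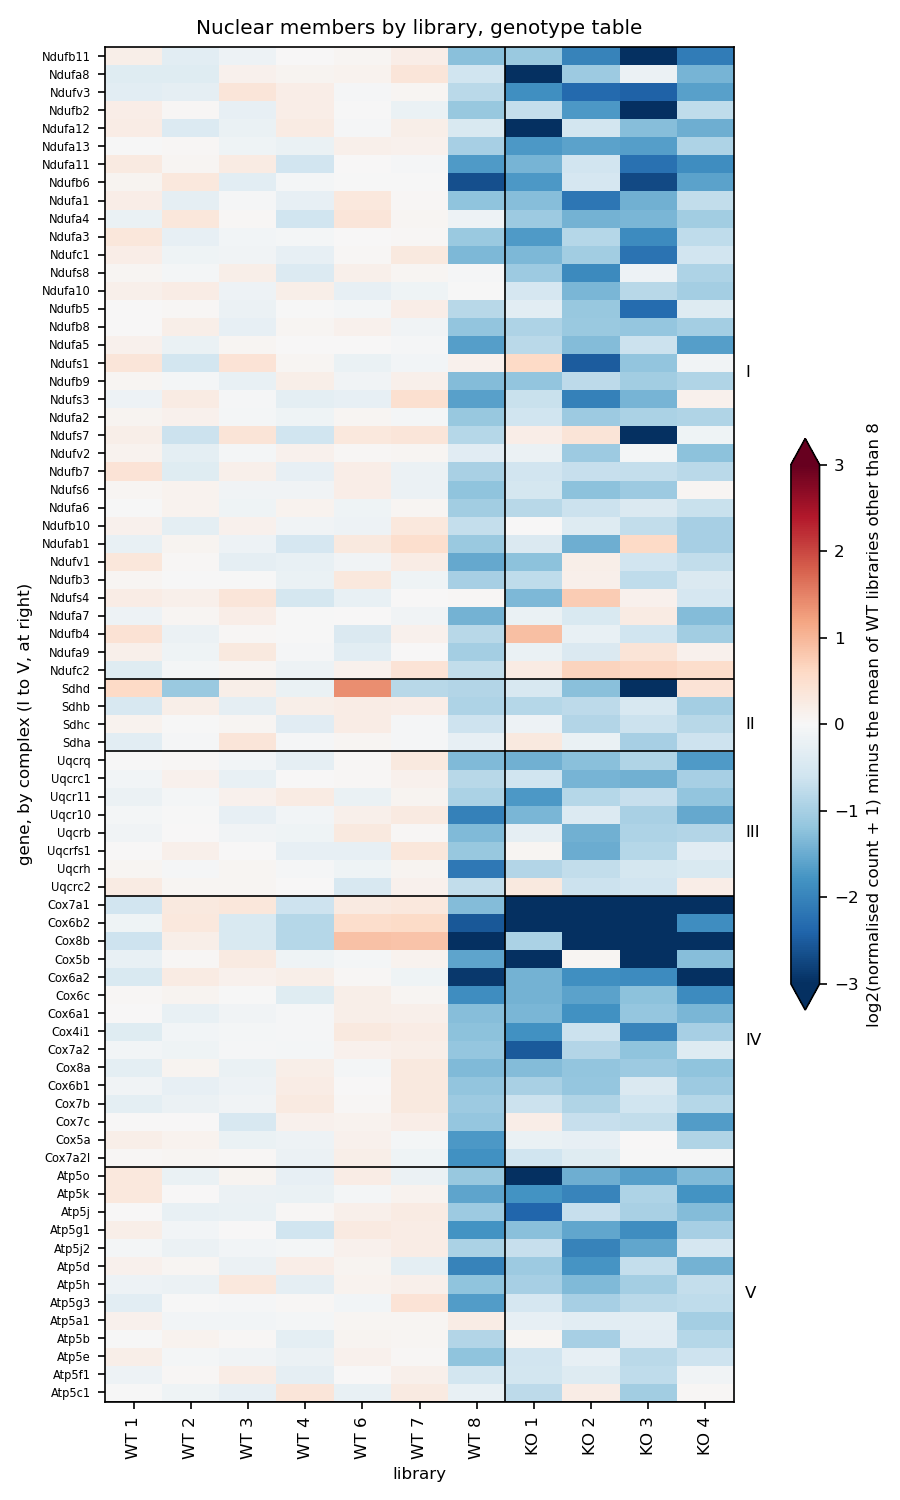
Tested nuclear members reported here (rows, grouped by complex I to V and ordered by their difference) in the 11 libraries of the genotype table; colour gives log2(normalised count + 1) minus the mean of the WT libraries other than 8, capped at 3 in either direction. WT library 8 is blue for most members, like the 4 KO libraries, and Ndufc2 is the last row of complex I.

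Complex I had 38 nuclear members listed and 36 tested, of which 15 were lower and 1 higher, with a median of −0.80. The largest falls were those of Ndufb11, Ndufv3 and Ndufb2. Ndufv3 (chromosome 17, 31520115 to 31531331, plus strand, GRCm38), a small subunit of the NADH-oxidising tip of the complex, had a lowest, median and highest value of 132, 226 and 295 in WT. Its KO values were 63.6, 45.0, 41.9 and 74.0, all below the lowest WT library. The difference was −1.94 (SE 0.26, adjusted p = 7.79e-05 by limma), a 3.90-fold lower mean (219 ± 54.5, SD, n = 7, against 56.1 ± 15.3, SD, n = 4).

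Ndufb11, an accessory subunit of the membrane arm encoded on the X chromosome (20615326 to 20617619), had WT values from 81.2 to 223 with a median of 198, and KO values of 90.2, 48.1, 0.432 and 45.2. The groups overlapped because WT library 8 was the lowest of its group, and KO library 3 held a single read. The log2 difference was −2.89 (SE 0.84, limma adjusted p = 0.0211), but edgeR on the recovered reads gave an adjusted p of 0.0735. Ndufb2, another membrane arm subunit, ranged from 101 to 259 in WT (median 222) and was at 135, 67.2, 10.4 and 130 in KO. Its groups overlapped too. The limma difference of −1.72 (SE 0.55, adjusted p = 0.0329) was not kept by edgeR (adjusted p = 0.119) or when any of WT libraries 1, 2, 3, 4, 6 and 7 or KO library 2 was left out (adjusted p up to 0.0607).

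Ndufc2, a membrane arm subunit of complex I, went the other way. Its lowest, median and highest WT values were 213, 338 and 467, and the KO values were 417, 560, 547 and 513. Only KO library 1 lay within the WT range. The rise was 0.62 (SE 0.20, limma adjusted p = 0.0327), and the adjusted p reached 0.0790 when single libraries were left out (KO 2, 3 or 4, or WT 1, 2 or 4). Its partner by name, Ndufc1, had a log2 difference of −1.10 (SE 0.34, limma adjusted p = 0.0272), a fall that did not pass without any of KO libraries 1 and 3 and WT libraries 1, 6 and 7 (up to 0.0790).

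Ndufa4 was at 60.2 to 117 in WT (median 93.7) and at 42.0, 33.4, 34.6 and 43.9 in KO, with no overlap and a log2 difference of −1.21 (SE 0.28, limma adjusted p = 0.00623). Its hypoxia-induced relative Ndufa4l2 was under the mean of 10 and was not tested: it was at 0 in 6 WT and 3 KO libraries, at 3.06 in WT library 7 and at 50.1 in KO library 3. The other member of complex I under that mean was Ndufs5, just outside it, with WT values of 0.770 to 14.5 and KO values of 0, 0, 0 and 22.2. Of the core subunits, Ndufs1, Ndufs3, Ndufs7, Ndufv1 and Ndufv2 had log2 differences from −0.81 to −0.37 and did not pass. Ndufs8, also of this core, was lower (−1.01, SE 0.31, limma adjusted p = 0.0299), but not by edgeR (0.0795), after quantile rescaling (0.0887) or without any of KO libraries 1 and 2 and WT libraries 1, 2, 3, 6 and 7 (up to 0.0768).

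**Figure D3:**
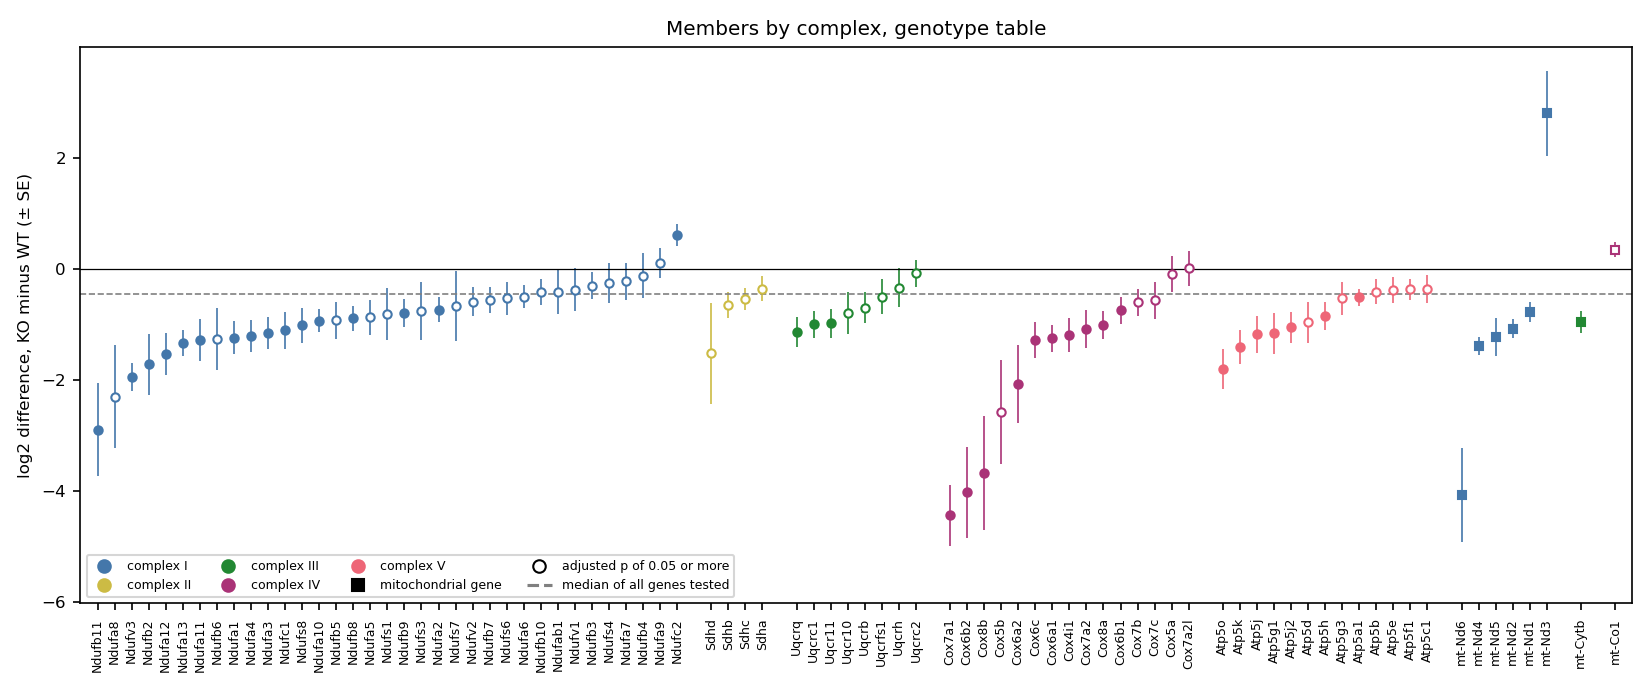
Log2 difference (KO minus WT) with its SE for the tested members of the genotype table reported here, by complex and, at the right, for mitochondrial genes; filled symbols passed an adjusted p of 0.05 and the dashed line is the median of all genes tested (−0.45). Most nuclear members lie below 0, with Cox7a1, Cox6b2 and Cox8b lowest among them, and mt-Nd3 and mt-Co1 lie above 0.

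Complex II, the only complex without a mitochondrial gene and also an enzyme of the citric acid cycle, had 4 members tested and none that passed (2 had an unadjusted p under 0.05, both with lower values in KO, against 28.2% of all genes). Sdha, the flavoprotein that oxidises succinate, ranged from 275 to 443 in WT (median 338) and was at 422, 298, 171 and 224 in KO. The groups overlapped, and the log2 difference was −0.35 (SE 0.22, limma adjusted p = 0.264). Sdhc, a membrane anchor, ranged from 184 to 331 in WT (median 278) and was at 253, 153, 180 and 159 in KO. Its log2 difference was −0.54 (SE 0.20, limma adjusted p = 0.0677), and without WT library 8 it passed (−0.63, adjusted p = 0.0134), as did the iron-sulphur subunit Sdhb (−0.79, adjusted p = 0.00472). With all libraries, none of the 4 passed by edgeR, and Sdhb alone passed by DESeq2 (adjusted p = 0.0270).

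Complex III had 8 nuclear members tested and 3 that were lower, Uqcrq, Uqcrc1 and Uqcr11, with 6 lower without WT library 8. Uqcrq, a small subunit next to cytochrome b, was at 141 to 438 in WT (median 352) and at 131, 147, 188 and 109 in KO. Apart from WT library 8, at 141, no WT library fell below 294. The log2 difference was −1.14 (SE 0.27, limma adjusted p = 0.00687). Uqcrc1, a core protein of the matrix side, ranged from 99.3 to 194 in WT (median 177) and was at 115, 66.8, 64.0 and 87.3 in KO (−0.99, SE 0.25, limma adjusted p = 0.00878). Uqcr11, the smallest subunit, ranged from 123 to 284 in WT (median 231) and was at 71.5, 132, 147 and 105 in KO (−0.98, SE 0.26, limma adjusted p = 0.0123). In both, WT library 8 alone made the groups overlap. The other core protein, Uqcrc2, overlapped fully, with a difference of −0.08 (SE 0.25, limma adjusted p = 0.838).

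Complex IV had 16 nuclear members listed and 15 tested, of which 10 were lower (11 without WT library 8), with a median of −1.19. All the partners of the tissue-specific forms that reached the mean of 10, widely expressed ones included, were lower except Cox7a2l. The largest differences were those of Cox7a1, Cox6b2 and Cox8b, forms best known from muscle and testis, whose levels were low. Cox7a1 (chromosome 7, 30184144 to 30186078, plus strand) had WT values of 9.03 to 30.0 (median 28.6) and was at 0 in all 4 KO libraries, with 145 reads in WT and 0 in KO. Its mean (22.4 ± 8.88, SD, n = 7, in WT) was at least 64.0-fold lower in KO, counted against 3 reads over the group. The limma adjusted p was 5.01e-05, but 0.208 after quantile rescaling.

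Cox6b2 had WT values of 5.42 to 55.1 (median 33.1) and KO values of 0, 0, 0 and 9.31. Only WT library 8, the lowest of its group, lay within the KO range. The difference was −4.02 (SE 0.82, limma adjusted p = 0.00261), with an adjusted p of 0.0702 by edgeR and 0.0962 after quantile rescaling. Cox8b, whose window is printed above, had WT values of 1.81 to 71.0 (median 27.6) and KO values of 19.3, 0, 0 and 0. WT library 8 held 1 read of it and KO library 1 held 34. The limma difference of −3.67 (SE 1.02, adjusted p = 0.0175) did not pass by edgeR (adjusted p = 0.208), by DESeq2 (0.0922) or after quantile rescaling (0.186), and missed the threshold narrowly without KO library 4. Cox6a2 was at 14.4 to 135 in WT (median 117) and at 42.0, 31.2, 30.3 and 3.10 in KO, with only WT library 8 overlapping. Its difference of −2.07 (SE 0.70, limma adjusted p = 0.0434) did not pass by edgeR (adjusted p = 0.0549), after quantile rescaling (0.102) or without any of KO library 4 and WT libraries 1, 2, 3, 4, 6 and 7 (up to 0.129). Cox4i2, the lung form of Cox4, was near 0 in both groups, at 0 to 2.04 in WT and 0 in KO.

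The widely expressed partners differed by smaller steps at higher levels. Cox6a1 (chromosome 5, 115345642 to 115348981, minus strand) ranged from 269 in WT library 8 to 743, with a median of 641, and was at 251, 184, 292 and 253 in KO. Every WT library but 8 lay above every KO library, and the log2 difference was −1.25 (SE 0.25, limma adjusted p = 0.00209). Cox4i1, the regulatory subunit that binds ATP, ranged from 222 to 639 in WT (median 500) and was at 147, 332, 130 and 262 in KO (−1.19, SE 0.30, limma adjusted p = 0.0105). Cox8a was at 197 to 607 in WT (median 476) and at 199, 218, 234 and 215 in KO, the KO libraries being close to each other (−1.0, SE 0.25, limma adjusted p = 0.00967). As for Cox6a1, WT library 8 alone overlapped with KO in both genes.

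Cox6b1 was at 273 to 758 in WT (median 576) and at 318, 276, 456 and 292 in KO (−0.75, SE 0.25, limma adjusted p = 0.0389), and Cox7a2 was at 172 to 434 (median 372) and at 67.0, 210, 166 and 296 (−1.08, SE 0.35, limma adjusted p = 0.0338). Both calls were lost when single libraries other than WT 8 were left out, 9 of the 11 for Cox6b1 (adjusted p up to 0.0993) and 8 for Cox7a2 (up to 0.104), and that of Cox7a2 also by edgeR (0.0849). Cox7a2l, which is known to join complexes III and IV into supercomplexes, was at 101 to 401 in WT (median 369) and at 236, 279, 353 and 355 in KO, with overlapping groups and a log2 difference of 0.01 (SE 0.32, limma adjusted p = 0.981). Without WT library 8, its lowest library, that difference was −0.25 (adjusted p = 0.199).

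Complex V had 16 nuclear members listed and 13 tested, of which 7 were lower (12 without WT library 8) with a median of −0.85. Atp5o (chromosome 16, minus strand), the stalk subunit that holds the catalytic head to the membrane part, was at 181 to 496 in WT (median 353) and at 36.9, 144, 126 and 159 in KO. The groups did not overlap, and the log2 difference was −1.80 (SE 0.37, limma adjusted p = 0.00261). Atp5k, the small subunit e that takes part in dimers of the enzyme, ranged from 227 to 843 in WT (median 658) and was at 195, 171, 355 and 195 in KO. WT library 8, at 227, lay below KO library 3, and the difference was −1.40 (SE 0.31, limma adjusted p = 0.00412). Atp5j, coupling factor 6 of the stalk, was at 70.4 to 180 in WT (median 152) and at 28.4, 94.0, 76.5 and 61.2 in KO (−1.18, SE 0.34, limma adjusted p = 0.0209). Without KO library 1, its lowest, the adjusted p was 0.0605.

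The proton-carrying ring of ATP synthase is built from subunit c, which the genes Atp5g1, Atp5g2 and Atp5g3 encode with an identical mature protein. Atp5g1 was at 48.7 to 208 in WT (median 174) and at 72.1, 57.4, 46.7 and 86.0 in KO (−1.16, SE 0.37, limma adjusted p = 0.0337), a call that was lost when any of 8 single libraries was left out (all but WT 4, WT 8 and KO 4, adjusted p up to 0.0771) and after quantile rescaling. Atp5g3 was at 404 to 1734 in WT (median 1264) and at 919, 646, 743 and 766 in KO (−0.53, SE 0.30, limma adjusted p = 0.213), and passed without WT library 8 (−0.77, adjusted p = 0.000807). Atp5g2 was under the mean of 10, at 0 to 12.3 in WT and at 0, 0, 6.05 and 4.43 in KO. Atp5l and Atp5s were also under that mean, Atp5s with 0 in all KO libraries and 2.96 to 8.41 in WT. Of the catalytic head, Atp5a1 (subunit alpha) was lower without overlap, at 756 to 944 in WT and 679, 648, 643 and 398 in KO (−0.51, SE 0.15, limma adjusted p = 0.0269), a call that edgeR did not make (0.0685) and that was lost without KO library 4 or WT library 1, whereas Atp5b (subunit beta, −0.41, SE 0.23) did not pass (adjusted p = 0.218).

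Over all complexes the 7 tested nuclear members without overlap between the groups, chosen here after their values were seen, were Ndufa4, Ndufa10, Ndufa12, Ndufv3, Cox7a1, Atp5a1 and Atp5o. Among the 43 members that passed, 26 passed in every fit with 1 library left out, 28 under every other alternative, and 20 under both. These 20 include Ndufv3, Uqcrq, Uqcrc1, Uqcr11, Cox4i1, Cox6a1, Cox8a, Atp5k and Atp5o.

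The mitochondrial members split. Summed, they were at 44171 to 67785 in the WT libraries other than 8, at 51581 in WT 8 and at 25870, 23012, 28709 and 29079 in KO. By this sum WT library 8 lay within the range of its group, but as a share of all normalised counts it did not: the mitochondrial members made up 1.88% to 2.86% of the WT libraries other than 8, 1.42% of WT 8 and 1.04% to 1.39% of KO libraries. By limma 6 of the 8 were lower in KO, mt-Nd1, mt-Nd2, mt-Nd4, mt-Nd5, mt-Nd6 and mt-Cytb. All 6 had every KO library below every WT library, as had 10.6% of all genes. Only mt-Nd3 was higher, and mt-Co1 had a higher mean but did not pass. These 8 were all the mitochondrial members kept in this table. No mt-Atp gene was kept in either table, so complex V had no mitochondrial member. Whether absent or near-0 rows of mitochondrial genes reflect little RNA or the alignment and counting of tags was not tested.

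mt-Nd4, a proton-pumping subunit of complex I (mitochondrial genome, 10167 to 11544, plus strand), was at 14452 to 23875 in WT (median 19258) and at 6959, 6824, 7993 and 7741 in KO. No library of either group came near the other, and the difference was −1.39 (SE 0.16, limma adjusted p = 2.96e-05), a 2.64-fold lower mean. mt-Nd2, of the same arm, was at 6217 to 11340 in WT (median 8549) and at 4076, 3263, 4529 and 4684 in KO (−1.08, SE 0.17, limma adjusted p = 0.000328). mt-Nd1, which lies at the ubiquinone site, was at 7716 to 14862 in WT (median 10708) and at 5669, 5937, 7094 and 6599 in KO (−0.77, SE 0.18, limma adjusted p = 0.00626). mt-Cytb, the cytochrome b of complex III, was at 8025 to 16644 in WT (median 12689) and at 6570, 4850, 6653 and 7315 in KO (−0.95, SE 0.20, limma adjusted p = 0.00347).

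mt-Nd5 showed an extreme library. Its WT values other than library 8 were 1377 to 2262, library 8 held 7213, and KO libraries held 928, 783, 1043 and 1074. The limma difference was −1.22 (SE 0.34, adjusted p = 0.0165), and −0.94 without WT library 8 (adjusted p = 0.000219). mt-Nd6, the only member on the other strand of the mitochondrial genome, was at 44.4 to 82.6 in WT (median 54.4) and at 0, 0.445, 43.2 and 1.33 in KO. KO library 3 came close to the lowest WT library, while the other KO libraries held 0, 1 and 3 reads. The limma difference was −4.07 (SE 0.85, adjusted p = 0.00300), but edgeR gave an adjusted p of 0.168 and DESeq2 gave none. The genes mt-Nd5 and mt-Nd6 overlap by 14 bases on opposite strands, and the strand setting of the counting is not given in the sources used here, so that reads there cannot be assigned with certainty.

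mt-Nd3 was at 0 to 10.2 in WT (median 1.54) and at 14.2, 11.1, 35.9 and 27.5 in KO, with no overlap (3.67% of all genes lay wholly higher in KO), on 25 to 83 reads per KO library. It is the member just inside the mean of 10. The log2 difference was 2.80 (SE 0.77, adjusted p = 0.0158 by limma), with an adjusted p of 0.0761 by edgeR and of 0.0565 without KO library 3. mt-Co1, the catalytic subunit of complex IV, was at 1001 to 1260 in the WT libraries other than 8, at 1569 in library 8 and at 1653, 1342, 1319 and 1637 in KO. Its log2 difference was 0.35 (SE 0.14, limma adjusted p = 0.0859), and without WT library 8 it passed (0.42, adjusted p = 0.00440), with no overlap (5.86% of all genes lay wholly higher in KO without that library).

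**Figure D4:**
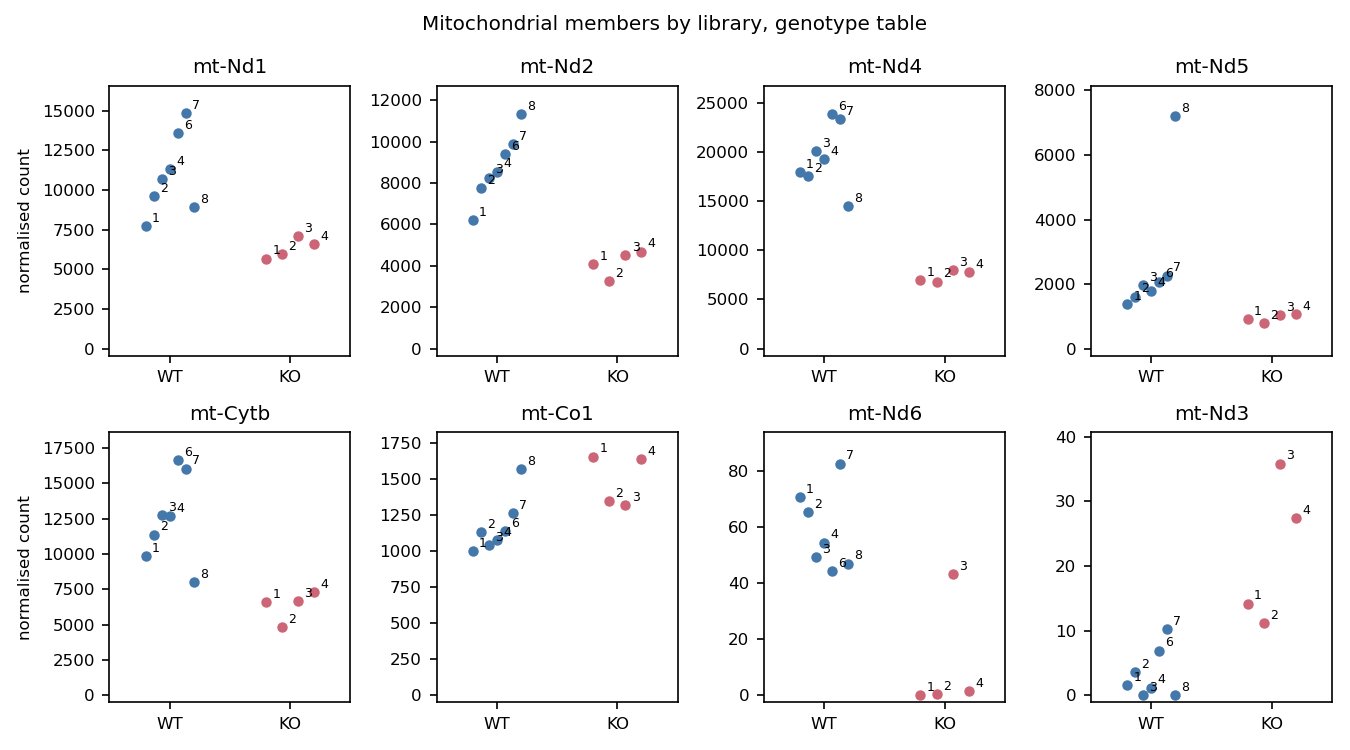
Normalised count of the 8 mitochondrial members in each WT and KO library of the genotype table, with library numbers; each panel has its own linear axis. The KO libraries lie below all WT libraries for mt-Nd1, mt-Nd2, mt-Nd4, mt-Nd5, mt-Cytb and mt-Nd6, but above them for mt-Nd3, and mt-Co1 of WT library 8 (1569) lies within the KO range.

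The unequal change of these genes, which are cut from shared precursors, is plain in ratios within a library. mt-Co1 over mt-Cytb was 0.0682 to 0.102 in the WT libraries other than 8, 0.196 in WT 8, and 0.252, 0.277, 0.198 and 0.224 in KO. mt-Nd5 over mt-Cytb was 0.125 to 0.154 in the WT libraries other than 8 and 0.141 to 0.161 in KO, but 0.899 in WT 8. The mitochondrial ribosomal RNAs, which are no members, made up 1.36% to 1.59% of counts in WT other than 8, 4.67% in WT 8 and 0.647% to 0.886% in KO. In ribosomal RNA and mt-Nd5, WT library 8 lay above the rest of its group. The ratio of summed mitochondrial to nuclear members was 1.81 to 2.63 in WT other than 8, 4.59 in WT 8 and 1.76 to 2.17 in KO.

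Other genes of mitochondria were counted from lists. Of 38 tested assembly factors of the complexes, 6 were lower and none higher in KO (median −0.86), against 19.8% of all genes lower. Of 73 proteins of the mitochondrial ribosome 7 were lower (median −0.68), of 21 import genes 1 (Timm44, −1.50, SE 0.45, limma adjusted p = 0.0267), and of 16 genes of the citric acid cycle and pyruvate dehydrogenase 4. The last were Ogdh (−2.48, SE 0.46), Fh1 (−2.02, SE 0.54), Dlst (−0.92, SE 0.29) and Sucla2 (−2.58, SE 0.82). Without WT library 8 the counts were 7, 9, 3 and 8, in a fit where 22.6% of all genes were lower. The shares of assembly factors, ribosomal proteins and import genes that were lower, unlike that of the nuclear subunits, were under the share of all genes. Their medians (−0.86, −0.68 and −0.74) nonetheless lay below that of all genes (−0.45) and near that of the nuclear subunits (−0.83). No list was tested against another, and the part of expression level in the shares was not tested. Cytosolic ribosomal proteins had 3 of 84 lower and 2 higher (19.8% and 5.14% of all genes). Without WT library 8 they had 23 lower and 5 higher, near the shares of all genes in that fit (22.6% and 7.6%).

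Of 21 genes for expression of mitochondrial DNA and mitochondrial biogenesis, 3 were lower, a share under the 19.8% of all genes. They were the coactivators Ppargc1a (27.1 ± 16.2, SD, n = 7, in WT and 3.12 ± 6.23, SD, n = 4, in KO) and Pprc1 (31.1 ± 11.2 and 9.95 ± 11.2), and Yy1 (−0.71, SE 0.23, limma adjusted p = 0.0371). Of the 10 genes for cytochrome c and carriers 2 were lower and 1 higher (19.8% and 5.14% of all genes). The adenine nucleotide translocators, which exchange ATP for ADP across the inner membrane, moved in opposite directions. Slc25a4, the form of heart, muscle and brain, was at 486 ± 37.0 (SD, n = 7) in WT and 137 ± 53.4 (SD, n = 4) in KO (−1.92, SE 0.24, limma adjusted p = 5.15e-05). Slc25a5, the form of many dividing cells, was at 271 ± 36.0 and 387 ± 83.5 (0.50, SE 0.17, limma adjusted p = 0.0481). The third member of this list to pass was Atpif1, the inhibitor of ATP synthase (−0.74, SE 0.23, limma adjusted p = 0.0302). Cytochrome c itself did not pass (Cycs, −0.34, SE 0.42, limma adjusted p = 0.586).

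The second comparison sets injected recombinant APOE against its carrier in mice without the gene. No member passed. Of 73 nuclear and 8 mitochondrial members tested, 0 were lower and 0 higher by limma, among 7066 genes tested of which 0.113% were lower and 0.368% higher in rAPOE. By edgeR 0 members passed too (0.0142% of all genes were lower and 0.326% higher), and by DESeq2 also 0 (0.637% and 0.991%). At an unadjusted p under 0.05, 11 nuclear members had higher values and 0 had lower values in rAPOE (5.22% and 5.99% of all genes). The differences leaned to one side: 55 of 73 were above 0, against 49.4% of all genes, and the median was 0.35 against −0.01 for all genes. For the mitochondrial members 5 of 8 were above 0 and the median was 0.11.

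Nuclear members summed to 5332, 9443, 5302, 4499 and 5428 in PBS libraries 1 to 5 and to 9641, 8362, 7356, 5931 and 7156 in rAPOE libraries 1 to 5. Apart from PBS library 2, every PBS sum lay below every rAPOE sum. That library was the highest PBS library for 41 of the 73 nuclear members (25.3% of all genes), and without it the median was 0.53, 60 differences were above 0 and 1 member, Ndufb2, passed (2.57, limma adjusted p = 0.0428, with 0.396% of all genes higher). Likewise rAPOE library 1 was the highest rAPOE library for 34 of the 73 (24.1% of all genes). Without it the nuclear median was 0.295, beside 0.063 for all genes. The lowest nuclear median with 1 library left out was 0.25, without PBS library 4, beside 0.01 for all genes. Mitochondrial members summed to 27522, 36129, 23888, 15884 and 25014 in PBS and to 40190, 33859, 33548, 13903 and 18610 in rAPOE. Here the groups overlapped: rAPOE library 4 lay below every PBS library and library 5 above PBS library 4 alone.

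In complex I, 35 nuclear members were tested, with a median of 0.26. Ndufb2 was at 9.10, 105, 8.0, 19.8 and 21.9 in PBS and at 180, 72.6, 99.4, 76.8 and 42.7 in rAPOE, with PBS library 2 alone overlapping (1.99, SE 0.63, limma adjusted p = 0.211). It was chosen after its values were seen. Among the members with the highest means, Ndufa2 was at 85.6 to 522 in PBS and 141 to 313 in rAPOE (0.47, SE 0.38), and Ndufa6 at 88.0 to 207 and 32.6 to 301 (−0.12, SE 0.45).

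Complex II had a median of 0.16 over 4 members. Sdha was at 38.1, 123, 107, 102 and 104 in PBS and at 82.5, 105, 104, 137 and 87.1 in rAPOE (0.20, SE 0.37), and Sdhc was at 62.4 to 94.8 in PBS and 48.2 to 250.2 in rAPOE (0.12, SE 0.42). Sdhd, just inside the mean of 10, was at 24.0, 6.32, 22.4, 5.93 and 13.5 in PBS and at 1.18, 21.2, 0, 6.98 and 6.22 in rAPOE (−1.45, SE 1.09), and Ndufs8 of complex I, just outside, was at 0 to 19.3 and 1.0 to 13.2. In complex III the median was 0.62 over 8 members. Uqcrq was at 77.8, 169, 56.0, 115 and 104 in PBS and at 302, 190, 222, 146 and 187 in rAPOE, PBS library 2 again overlapping (1.05, SE 0.33, limma adjusted p = 0.211). Uqcrh, the hinge protein, was at 91.5 to 290 in PBS and 79.7 to 206 in rAPOE (−0.20, SE 0.34).

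In complex IV the median over 12 tested members was 0.57. Cox7a2 was at 139, 130.2, 84.8, 97.5 and 120.3 in PBS and at 236, 333, 192, 110.2 and 166 in rAPOE (0.78, SE 0.32, limma adjusted p = 0.371). Cox8a was at 228, 338, 171, 132 and 168 in PBS and at 530, 275, 274, 148 and 157 in rAPOE (0.33, SE 0.34), and Cox7c at 70.4 to 503 and 189 to 443 (0.59, SE 0.39). Cox6a1 was at 85.2 to 336 in PBS and 137 to 228 in rAPOE (0.55, SE 0.35), Cox6b1 at 65.9 to 205 and 92.3 to 124 (−0.03, SE 0.34), and Cox4i1 at 130.2 to 216 and 86.0 to 196 (−0.20, SE 0.30). The lowest difference was that of Cox7a2l, at 121, 148, 60.8, 95.5 and 95.9 in PBS and at 51.9, 31.3, 143, 46.6 and 49.7 in rAPOE: 4 of the 5 rAPOE libraries lay below every PBS library, while library 3 lay near the highest (−0.83, SE 0.43, limma adjusted p = 0.491). Cox6a2 was at 1.6 to 26.5 and 3.01 to 58.9 (0.69, SE 0.94). Cox6b2 and Cox7a1 were at 0 in most libraries of both groups, with at most 3.22 and 4.50.

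Complex V had a median of 0.48 over 14 members. Atp5d, subunit delta of ATP synthase, was at 32.3, 44.2, 20.8, 37.5 and 57.3 in PBS and at 73.1, 82.7, 121, 76.8 and 60.6 in rAPOE. Its groups did not overlap (1.59% of all genes lay wholly higher in rAPOE), but the difference did not pass (1.13, SE 0.43, limma adjusted p = 0.323), and the gene was chosen after its values were seen. Atp5g3 was at 209, 215, 198, 229 and 331 in PBS and at 370.0, 450, 247, 239 and 438 in rAPOE, with PBS library 5 alone overlapping (0.53, SE 0.27, limma adjusted p = 0.475). Atp5a1 was at 158 to 360.0 in PBS and 187 to 403 in rAPOE (0.15, SE 0.29). Atp5g1 was at 24.8, 15.2, 4.80, 7.90 and 26.4 in PBS and at 8.25, 81.7, 31.1, 38.8 and 39.6 in rAPOE (1.21, SE 0.77), and Atp5g2 was at 0 in 4 of 5 PBS and 2 of 5 rAPOE libraries.

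**Figure D5:**
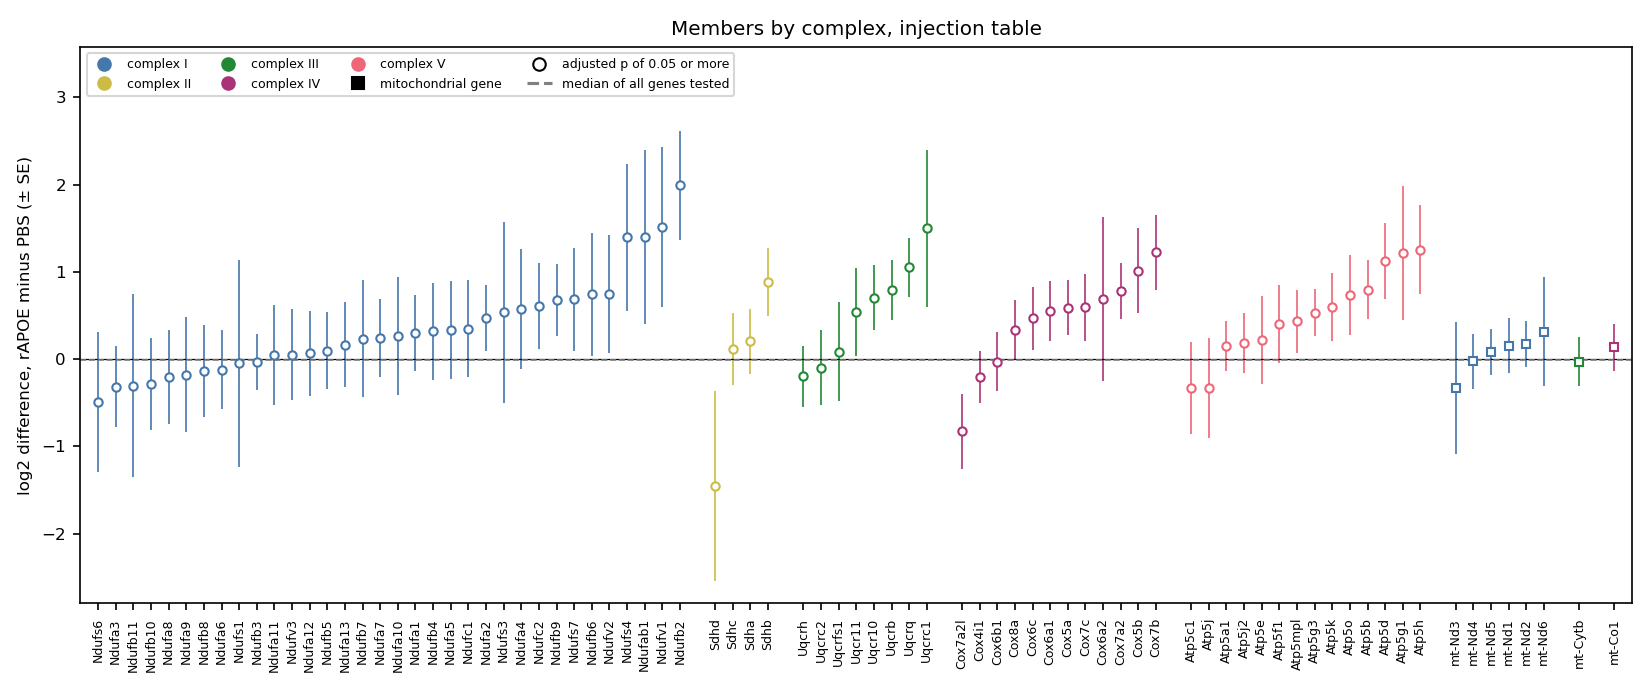
Log2 difference (rAPOE minus PBS) with its SE for the tested members of the injection table reported here, by complex and, at the right, for mitochondrial genes; open symbols did not pass an adjusted p of 0.05, which holds for all members plotted, and the dashed line is the median of all genes tested (−0.01). Most nuclear differences lie above 0, and the SE of many reach across it.

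The mitochondrial members of the injection table overlapped between the groups for all of the 8 tested. mt-Nd4 was at 7149, 11183, 6280, 3533 and 6034 in PBS and at 9380, 8217, 8667, 3154 and 4659 in rAPOE (−0.02, SE 0.32). mt-Cytb was at 5617, 7518, 4382, 3775 and 5626 in PBS and at 8028, 5847, 7248, 2855 and 3628 in rAPOE (−0.03, SE 0.28), and mt-Co1 at 1809, 2011, 1307, 1312 and 1561 and at 2727, 2115, 2374, 989 and 1146 (0.13, SE 0.27). mt-Nd1, mt-Nd2 and mt-Nd5 had differences of 0.15 (SE 0.31), 0.17 (SE 0.26) and 0.09 (SE 0.26). mt-Nd3 was at 14.8 to 36.9 in PBS and 4.71 to 55.5 in rAPOE (−0.33, SE 0.76), mt-Nd6 at 16.4 to 113 and 19.4 to 139 (0.32, SE 0.63), and mt-Co2 at 0 in all PBS libraries and at most 3.01 in rAPOE. The limma adjusted p was 0.847 or more for each. PBS library 4 was the lowest of its group in 5 of the 8 (11.1% of all genes) and rAPOE library 4 in 7 (11.5% of all genes).

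The related lists gave 0 calls in this comparison by limma, with medians of 0.45 for assembly factors, 0.44 for the mitochondrial ribosome, 0.56 for the citric acid cycle, 0.52 for import genes and 0.36 for cytosolic ribosomal proteins, beside −0.01 for all genes. Microglial markers summed to 21214 to 28430 in PBS and 12666 to 25401 in rAPOE, with 1 of 8 lower (median −0.61), and their part in the values above was not tested. Choroid plexus markers were listed for 2 of 8 genes, at 0.827 to 267 in PBS and 0 to 512 in rAPOE. In counts simulated at the means and library sizes of the 7066 genes tested, 7% of the 2-fold changes and 50% of the 8-fold ones were found by limma. For the 10401 genes of the genotype comparison, these shares were 11% and 62%. Each simulated gene had the same spread in both groups, so unequal scatter between groups was not covered.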

How the data were processed

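RNA of 21 libraries was read as QuantSeq 3′ tags on an Illumina MiniSeq, per the labels' protocols. The submitters' processing notes name GRCm38.p3 as the build and, without roles or order, Picard 1.8.4, HTSeq, R 3.2.3 and DESeq2. For the aligner, annotation and strand setting: not given in the sources used here. Deposited values are a signal per gene, called the normalised count, which is each library's read count over a library-wide factor. In each library, 100% of values above 0 were within 0.01 of whole multiples of 1 step, which gave back the reads. Reads carry no molecular identifiers, so floors (3 reads) cover counting error only. No value column was left unused.

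In the genotype table, 22 rows named by spreadsheet dates (0.0966% of summed values) and 120 rows at 0 throughout were left out. Genes with a mean of at least 10 were tested in R 4.3.3 with limma 3.58.1 (eBayes with trend) on log2(normalised count + 1), a scale that understates changes of low genes, with Benjamini-Hochberg adjustment over all genes of the table and a threshold of 0.05. Differences and SE are on that scale. Folds are ratios of mean normalised counts. edgeR 4.0.16 and DESeq2 1.42.0 on recovered reads, other scalings, filters and a pseudocount of 10, leaving out libraries and a replicate block were alternatives.

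The values named follow a rule: every mitochondrial member, the 3 largest falls and rises that passed per complex (or the 2 highest means), tissue-specific partners, members next to the mean of 10, and up to 4 passing genes of each related list. Other genes named were chosen after their values were seen, core subunits, Atp5a1, Atp5b, Sdhb, Ndufc1 and Uqcrc2 among them. 1 member enters the counts and sums and is not reported here by name or in the figures of single genes. The members and lists were chosen with earlier results of these data known. No library pair differed by less than sampling noise, but the scatter was unequal. The chi-square per degree of freedom between libraries, which also rises with depth, was 3.9 to 7.0 among WT other than 8. It was 53.0 to 72.6 for WT 8 against them and 33.6 to 65.8 among KO libraries. Limma fitted a shared variance per gene for both groups, and the part of this unequal scatter in the calls was not tested. Pseudogene rows, left out, held at most 2.41 in the genotype and 3.54 in the injection table. How tags shared with pseudogenes were counted is not stated. Positions are from GENCODE for GRCm38, promoters from RefSeq. On simulated counts (10401 and 7066 genes) limma made 3 and 2 false calls. The simulation gave each gene the same spread in both groups, unlike the unequal scatter above, so it does not give the error rate in these data. Motif searches and figures used Python 3.11.15 and matplotlib 3.10.9.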

Additional observations from a re-analysis of the deposited data

Results flagged for a closer look

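In groups of 4 to 10 libraries, a highest or lowest value was listed when its gap to the next exceeded Dixon's 95% limit. Over 147 groups there were 31 such values, where chance gives about 1 in 20. None was left out of the main fit. WT library 8 accounts for 7 of them: the sum of nuclear members (11244), the ratio of mitochondrial to nuclear sums (4.59), Atp5k (227), Cox6a1 (269), Cox7a2 (172), Cox7a2l (101) and, as the highest, mt-Nd5 (7213). The other WT values were Atp5g2 in library 1 (12.3) and Ndufa4l2 in library 7 (3.06). PBS library 2 accounts for 5, all highest: the nuclear sum (9443), Cox6a1 (336), Cox7c (503), Ndufa2 (522) and Ndufa6 (207).

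In KO, the listed values were those of library 1 for Cox8b (19.3), library 3 for Atp5k (355), Ndufa4l2 (50.1) and mt-Nd6 (43.2), and library 4 for Cox6b2 (9.31) and Ndufs5 (22.2), each the highest. In PBS they were library 1 for Atp5g2 (4.96, highest) and Sdha (38.1, lowest), library 4 for mt-Nd2 (2223) and mt-Nd5 (1233), both lowest, and library 5 for Atp5g3 (331) and Cox6b2 (3.22), both highest. In rAPOE they were library 2 for Sdhc (250.2, highest), library 3 for Cox7a2l (143) and mt-Co2 (3.01), both highest, library 4 for Cox6a1 (137, lowest) and library 5 for Cox6b2 (0.777, highest). Of the low-level genes, several are at 0 in the other libraries of the group, where any read is listed.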

How the results depend on the processing

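How far depth, rather than other scatter between libraries, limited the calls was not tested. Nuclear members lower in KO numbered 27 (edgeR) to 40 (pseudocount of 10) under the other settings, and 24 to 52 with 1 library left out, where the highest count was without WT library 8. The 6 mitochondrial members lower in KO stayed 6 with 1 library left out. Mitochondrial members higher in KO numbered 0 with edgeR and at a mean of at least 50, where mt-Nd3 was not tested, 2 with the replicate block, and 0 to 2 with 1 library left out. Nuclear members higher in KO (Ndufc2) numbered 0 to 1, and in rAPOE 0 to 1, with 1 library left out. Over all genes, edgeR called 1159 lower and 499 higher in KO and quantile rescaling 1027 and 920, against 2061 and 535. In rAPOE DESeq2 called 45 lower and 70 higher, against 8 and 26.

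Replicate numbers did not pair the samples: same-numbered libraries had deviations correlated at −0.029 to 0.02 in the genotype and −0.004 to 0.185 in the injection table. In the latter, libraries 4 and 5 went together across the groups, same-numbered (0.185 and 0.112) or not (0.141 and 0.097). All other pairs there reached at most 0.055. Libraries 4 and 5 had 10025 to 11342 detected genes, and libraries 1 to 3 had 7601 to 8837. What sets these libraries apart was not tested. With the replicate block, 33 nuclear members were lower and 1 higher in KO, and 0 passed in rAPOE.

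The sign changed only for members that did not pass. For Cox7a2l between genotypes it was −0.074 (DESeq2), −0.051 (edgeR), −0.24 (replicate block) and −0.25 to 0.13 with 1 library left out. Between injections, Ndufa6 was at 0.15 (DESeq2 and edgeR) and mt-Cytb at 0.036 (DESeq2), 0.025 (edgeR) and 0.12 (both libraries numbered 5 left out), where mt-Nd4 was at 0.062. With 1 library left out, ranges that crossed 0 were −0.031 to 0.31 (Atp5a1), −0.23 to 0.18 (Cox6b1), −0.51 to 0.28 (Ndufa6), −0.10 to 0.32 (Sdha), −0.27 to 0.32 (Sdhc), −0.37 to 0.038 (Uqcrh), −0.03 to 0.34 (mt-Co1), −0.19 to 0.18 (mt-Cytb), −0.022 to 0.42 (mt-Nd1), −0.74 to 0.089 (mt-Nd3), −0.24 to 0.22 (mt-Nd4), −0.089 to 0.28 (mt-Nd5) and −0.083 to 0.72 (mt-Nd6). The cause of these changes was not tested.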
